A study of Mus musculus with 6 samples.

Results

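Keratin-associated proteins, the Krtap family, form the matrix of the hair shaft: they surround the keratin filaments of hair and crosslink them, largely through disulfide bonds between cysteines. High sulfur and ultra-high sulfur members are rich in cysteine, and a further class is rich in glycine and tyrosine. The genes are short, lie in clusters, and are switched on in the hair-forming cells of the growing hair follicle. Hair follicles belong to the skin and not to the colon lining.

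All rows of the deposited table whose gene name starts with Krtap were taken, with no minimum level, which gave 52 of 24617 rows. They carry 51 distinct symbols in 23 numbered subfamilies, since Krtap16-8 fills 2 rows at the same locus. Messenger RNA was sequenced from the distal colon of 3 wildtype C57Bl/6 males and 3 TNFR2-/- males of the same strain, all aged 8 weeks, where TNFR2 is the second receptor for tumor necrosis factor. None of the sources used here gives the origin of the knockout allele or says whether the mice were littermates. The design text gives 3 mice of each genotype. Values are FPKM, fragments scaled by transcript length and by the number of mapped fragments, and the stated average depth was 50M read pairs or reads of 50 bases (the wording allows either). Total counts are unknown from FPKM, and the steps of the lowest values placed the relative depth of the other libraries between 0.737 and 1.10 of wildtype library 1.

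Tnfrsf1b, the gene of TNFR2, measured 7.49, 8.20 and 8.17 FPKM among wildtype mice against 1.17, 1.12 and 0.924 FPKM among TNFR2-/- mice, which matches the labels. Colon epithelium genes were present in all libraries, with a summed level of 1621 to 2728 FPKM over the 7 genes of a fixed list found in the table.

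All 51 genes are single-exon genes in the GENCODE vM21 annotation of GRCm38, the assembly behind mm10. On chromosome 11 lie 20 of the rows (99550132 to 99993994), on chromosome 16 lie 24 (88610709 to 89571183), on chromosome 7 lie 5 (142174532 to 142304503) and on chromosome 10 lie 3 (77720586 to 77837251). The table uses older symbols for 8 genes. Its Krtap16-2, Krtap16-1, Krtap16-5, Krtap16-4, Krtap8-2 and Krtap16-10b are Krtap19-1, Krtap19-2, Krtap19-3, Krtap19-4, Krtap19-5 and Krtap19-9b in RefSeq, its Krtap16-8 is Krtap6-5 and its Krtap16-7 is Krtap21-1. The table's symbols are used below.

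Many of the genes share a feature of their start sites that the choice of rows did not use. RefSeq promoters of GRCm38.p6 (250 bases before to 50 after the annotated start, the first listed per gene) were matched for 46 of the 51 genes. TATAAA, the letters of a TATA box, stood on either strand in 37 of 46 (80.4%), against 14.2% of all 27025 promoters in the table. On the sense strand, starting 20 to 40 bases before the annotated start, TATAAA stood in 27 of 46 (58.7%) against 2.22% of all. CTTTGAA and CTTTGTT, letters bound by LEF1-type factors, stood on either strand in 9 (19.6%) and 6 (13.0%) of 46, against 5.27% and 5.79% of all. A match describes letters and not a bound site. Some of these promoters are near copies of each other, so the 46 are not independent. Krtap31-1 and Krtap31-2, for example, matched at 96 of the 100 bases before the start.

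Below are the 100 bases before the annotated start of 4 genes from the clusters on chromosomes 16, 11 and 7, among them an exception described later (Krtap20-2). All 4 hold TATAAA near the start, and they do not stand for the genes without it there, such as Krtap15 and Krtap6-1 on chromosome 16. TATAAA is in capitals, and each stretch is read 5′ to 3′ on the gene's strand from GRCm38.p6. All 4 genes are on the minus strand except Krtap20-2, which is on the plus strand.
Krtap8-1, chr16:89487953-89488052: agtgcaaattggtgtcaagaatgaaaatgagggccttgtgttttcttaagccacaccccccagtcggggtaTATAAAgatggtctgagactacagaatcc
Krtap3-1, chr11:99566631-99566730: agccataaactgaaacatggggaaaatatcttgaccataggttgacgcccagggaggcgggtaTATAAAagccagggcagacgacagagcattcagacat
Krtap5-1, chr7:142297135-142297234: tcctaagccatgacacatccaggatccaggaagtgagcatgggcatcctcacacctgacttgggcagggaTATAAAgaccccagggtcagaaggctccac
Krtap20-2, chr16:89205761-89205860: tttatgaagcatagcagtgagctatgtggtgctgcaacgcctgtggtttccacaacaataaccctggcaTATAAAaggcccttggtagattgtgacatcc
In these, TATAAA starts 29, 37, 30 and 31 bases before the annotated start. Krtap8-1 and Krtap3-1 matched at 38 of 90 bases at their best ungapped offset, and the other stretches of this set were not compared.

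The summed level of the 52 rows was 751.0, 185.1 and 1227 FPKM in wildtype libraries 1, 2 and 3 and 11.7, 23.9 and 173 FPKM in knockout libraries 1, 2 and 3. Wildtype libraries 1 and 3 stood far above the rest, wildtype library 2 and knockout library 3 were nearly level, and knockout libraries 1 and 2 were lowest. Libraries of 1 genotype differed 6.63-fold among the wildtype and 14.8-fold among the knockout mice, and the highest and lowest of all 6 differed 105-fold. The mean was 721 ± 522 FPKM among wildtype mice against 69.6 ± 89.9 FPKM among TNFR2-/- mice (SD, n = 3 each), which puts the knockout at 9.65% of wildtype. That percentage rests on single libraries: without knockout library 3 it was 2.47%, and without wildtype library 3 it was 14.9%. In bulk tissue, fewer hair-forming cells and less Krtap RNA per cell cannot be told apart.

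**Figure D1:**
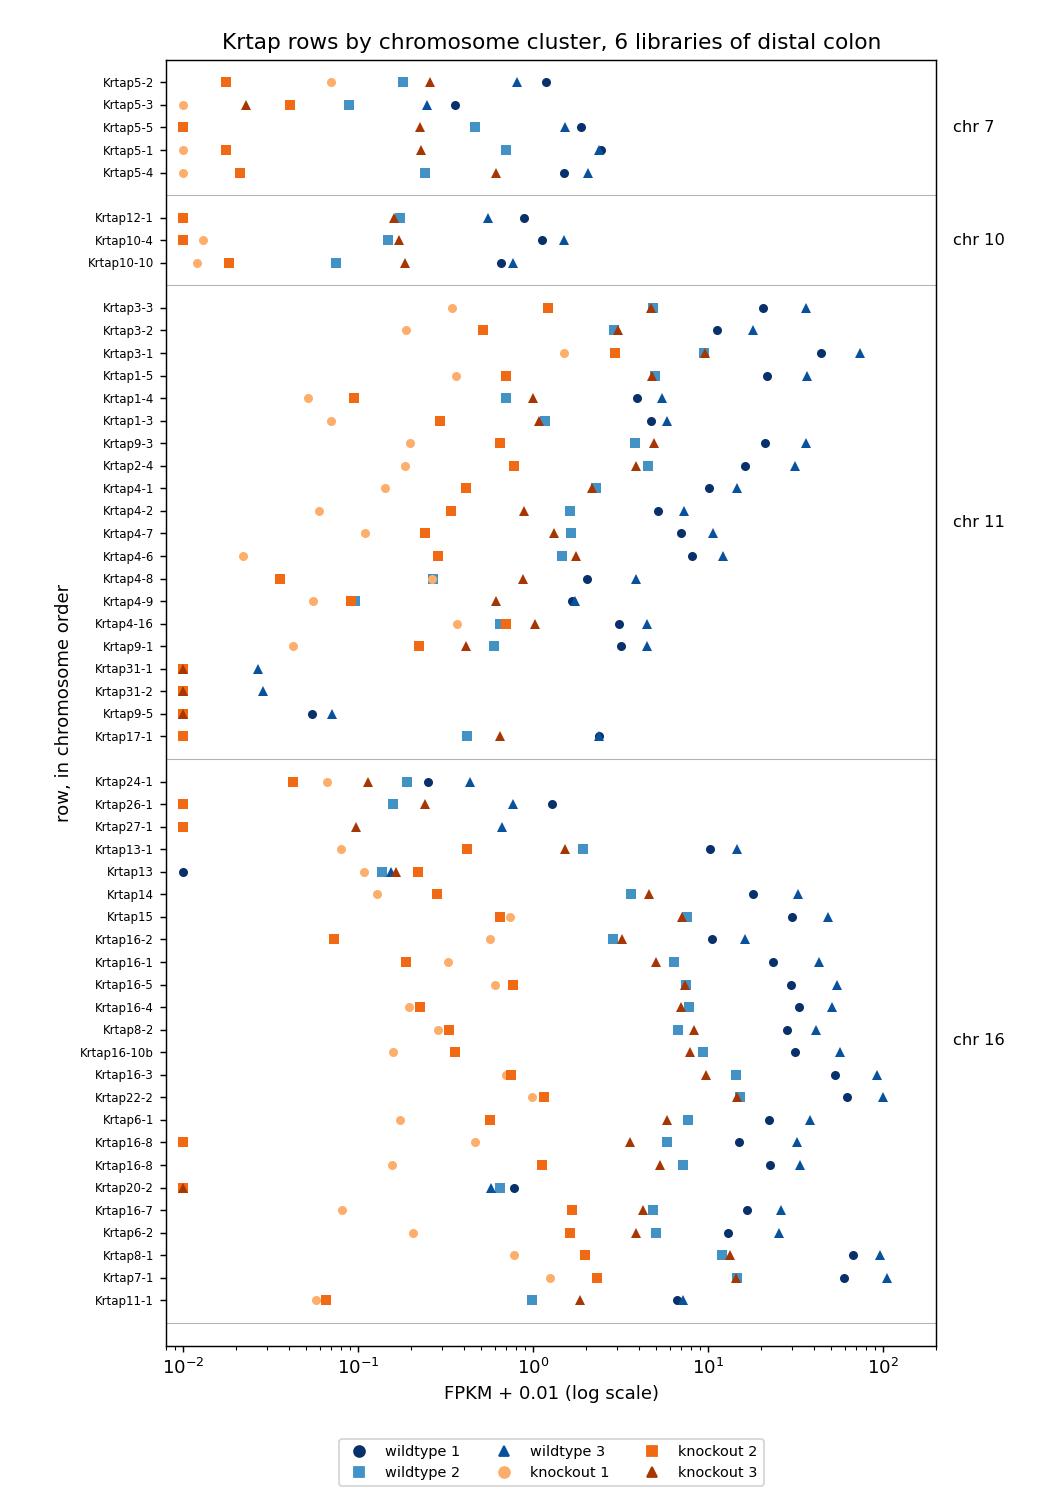
FPKM of each of the 52 Krtap rows (vertical, in chromosome order) on a log scale with 0.01 added (horizontal), 1 point per library, so that a listed 0 sits at the left edge and points there overlap. Wildtype libraries 1 and 3 lie at the right in nearly all rows, and wildtype library 2 and knockout library 3 lie close together.

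The order of the libraries repeated from row to row. Wildtype library 3 was the highest of the 6 in 43 rows and wildtype library 1 in 8. Wildtype library 2 was the lowest wildtype library in 47 rows, and knockout library 3 was the highest knockout library in 46. Wildtype library 2 was above knockout library 3 in 28 rows and below it in 21, so which genotype was higher differed between members for this pair. Among the 34 rows with a mean of at least 1 FPKM, the ratio of wildtype library 3 to wildtype library 1 had a median of 1.60 and a range of 1.09 to 2.15. The ratio of wildtype library 2 to wildtype library 1 had a median of 0.240 (0.128 to 0.388). The ratio of knockout library 3 to wildtype library 2 had a median of 0.950 (0.543 to 3.33). Across the 52 rows the profiles of wildtype libraries 3 and 1 had a Spearman correlation of 0.993, and those of knockout library 1 and wildtype library 1 of 0.831. These are descriptions across genes of libraries made by the same protocol, and genes are not independent replicates.

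Mean level was lower in the knockout in 51 of 52 rows, where 56.8% of all 19631 named rows above 0 in any library had a lower mean. All knockout values lay below all wildtype values in 28 of 52 rows, against 11.2% of those 19631 rows. Without wildtype library 2 the count was 48, against 24.7% of all those rows, and without knockout library 3 it was 46, against 16.1%. In 41 rows the knockout mean was 5 to 15% of the wildtype mean, in 1 it was lower but above 0, in 4 it is listed at 0 and in 6 it was higher.

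The genotype difference was tested with limma on log2(FPKM + 1), over all named rows with a mean of at least 0.5 FPKM, with a call where p after Benjamini-Hochberg adjustment was under 0.05. A fold change on this scale understates the change of low rows. Of the 52 Krtap rows 39 passed this minimum, 10 of them with a knockout mean below it, so those that passed are not a sample of the family. None of the 39 was called in limma, where 0.103% of the 14564 tested rows were called lower and 0.185% higher in the knockout. An unadjusted p under 0.05 was reached by 33 of the 39, against 9.91% of tested rows with such a p and a lower level. The smallest adjusted p was 0.179, for Krtap5-1, and the largest 0.425, for Krtap4-8. Log2 changes ran from -3.75 to -0.71, with standard errors of 0.25 to 1.20. The median over all tested rows was -0.03. Without wildtype library 2, limma called 6 Krtap rows lower (Krtap5-1, Krtap9-1, Krtap5-5, Krtap10-4, Krtap4-2 and Krtap4-16, Benjamini-Hochberg adjusted p = 0.0047 to 0.046), where 0.274% of tested rows were called lower. Krtap10-4 was not among the 39 and passed the minimum mean once that library was left out. Of the 6, all but Krtap4-16 had a knockout mean below the minimum and passed it through their wildtype values. Wildtype library 2 was the lowest wildtype library in 47 of the 52 rows, so leaving it out widens the difference. These 6 are therefore not a sample of the family. Leaving out any other single library gave 0 calls, and without knockout library 3 the share of all tested rows called lower was 0.0549%. With the replicate number as a block 1 row was called, one of the 2 Krtap16-8 rows, where 0.0687% were called lower.

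The authors' own test, Cuffdiff 2, gave another result for these rows. A q-value under 0.05 stands in the authors' deposited table for 35 of the 52 Krtap rows (67.3%), all lower in the knockout, where 0.926% of all 24617 rows are called lower and 1.02% in either direction. The family makes up 35 of the 228 rows called lower there, or 15.4%, and 13.9% of the 252 rows called in either direction. The smallest of these q-values in the authors' deposited table is 1.28e-11, for Krtap7-1, and the largest 0.035, for Krtap4-16. All 35 were also tested in limma, where the adjusted p of each was above 0.05. In 24 of the 35 the genotypes did not overlap, against 12.5% of the 14564 rows tested in limma with all knockout values below all wildtype values. In 11 at least 1 knockout library was as high as a wildtype library. The 35 were already chosen by the authors' test on the same mice. Krtap10-4, the uncalled row with the smallest q-value in the authors' deposited table, stands at 0.0501. The 2 tests estimate the error of each row differently, and which of their differences sets the calls apart was not tested.

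**Figure D2:**
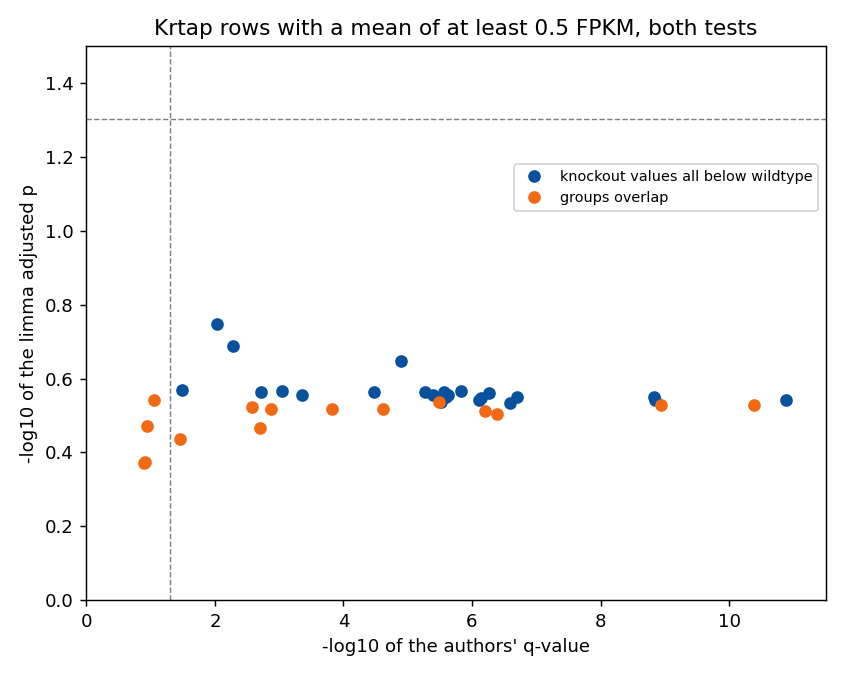
Each point is 1 of the 39 Krtap rows tested in limma, placed by the negative log10 of the authors' q-value (horizontal) and of the limma adjusted p (vertical); dashed lines mark 0.05. 35 points lie right of the vertical line and none lies above the horizontal line.

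The most abundant members were genes of the chromosome 16 cluster. Of the 12 rows with the highest mean over the 6 libraries, 11 lie there, and these 12 hold 63.5 to 65.0% of the Krtap signal in all libraries except knockout library 2, where they hold 50.3%. Krtap7-1, a small hair cortex protein gene, measured 59.8, 14.6 and 105 FPKM among wildtype mice against 1.24, 2.29 and 14.4 FPKM among TNFR2-/- mice. The genotypes were separated by a narrow margin between wildtype library 2 and knockout library 3. Its mean was 59.9 ± 45.3 FPKM among wildtype mice against 5.99 ± 7.34 FPKM among TNFR2-/- mice (SD, n = 3 each), a log2 change of -3.27 ± 1.12 (SE) with a Benjamini-Hochberg p of 0.288 in limma.

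Krtap8-1, whose start site is printed above, measured 67.4, 12.04 and 95.7 FPKM among wildtype mice against 0.764, 1.95 and 13.3 FPKM among TNFR2-/- mice. Here knockout library 3 was above wildtype library 2. Its log2 change was -3.39 ± 1.20 (SE) with a Benjamini-Hochberg p of 0.296 in limma. Krtap22-2 measured 62.2, 15.2 and 100.1 FPKM among wildtype mice against 0.975, 1.13 and 14.5 FPKM among TNFR2-/- mice, without overlap. Krtap16-3 measured 53.1, 14.4 and 91.5 FPKM among wildtype mice against 0.684, 0.732 and 9.75 FPKM among TNFR2-/- mice, also without overlap. It had the lowest fitted log2 change of the tested rows, -3.75 ± 1.11 (SE) with a Benjamini-Hochberg p of 0.271 in limma.

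The next rows of this cluster, Krtap16-10b, Krtap16-5, Krtap16-4, Krtap15, Krtap8-2, Krtap16-1 and Krtap6-1, had means of 12.4 to 17.6 FPKM over the 6 libraries. In all 12 leading rows the knockout mean was 7.02 to 11.7% of wildtype. Of the 12, 9 had no overlap, against 12.5% of tested rows. Their limma, Benjamini-Hochberg adjusted p-values were 0.271 to 0.304. Krtap14, a neighbour of Krtap15, measured 17.9, 3.58 and 32.4 FPKM among wildtype mice against 0.117, 0.273 and 4.54 FPKM among TNFR2-/- mice. The 2 Krtap16-8 rows had wildtype means of 17.6 and 21.0 FPKM and knockout means of 1.34 and 2.19 FPKM, and no source used here says how the authors' assembly divided that locus.

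Lower members of chromosome 16 lie mostly at its low-coordinate end. Krtap24-1, Krtap26-1 and Krtap27-1 had means of 0.173, 0.399 and 0.123 FPKM over the 6 libraries, while Krtap13-1 nearby had 4.79 FPKM. Krtap27-1 measured 0.651 FPKM in wildtype library 3 and 0.087 FPKM in knockout library 3 and is listed at 0 in the other libraries. Krtap11-1, at the other end, measured 6.59, 0.967 and 7.18 FPKM among wildtype mice against 0.0475, 0.0553 and 1.84 FPKM among TNFR2-/- mice.

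In the chromosome 11 cluster, which holds high sulfur and ultra-high sulfur genes, Krtap3-1 was highest. It measured 44.3, 9.41 and 73.7 FPKM among wildtype mice against 1.49, 2.91 and 9.61 FPKM among TNFR2-/- mice, so that knockout library 3 just passed wildtype library 2. Its log2 change was -2.81 ± 1.00 (SE) with a Benjamini-Hochberg p of 0.296 in limma. It was also the highest Krtap row in knockout libraries 1 and 2. Krtap1-5 measured 21.5, 4.96 and 36.4 FPKM among wildtype mice against 0.353, 0.691 and 4.73 FPKM among TNFR2-/- mice. Krtap9-3 and Krtap2-4 had wildtype means of 20.3 ± 16.1 and 17.3 ± 13.4 FPKM and knockout means of 1.90 ± 2.60 and 1.60 ± 1.99 FPKM (SD, n = 3 each).

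Position within this cluster went with level. The widest gap between neighbouring rows, 114053 bases, separates Krtap4-6 from Krtap4-8. The 12 rows before the gap had means of 1.85 to 23.6 FPKM over the 6 libraries, and the 8 rows after it 0.0028 to 1.71 FPKM. The Krtap4 subfamily spans the gap: Krtap4-1, Krtap4-2, Krtap4-7 and Krtap4-6 before it had means of 2.54 to 4.94 FPKM, and Krtap4-8, Krtap4-9 and Krtap4-16 after it 0.698 to 1.71 FPKM. The stretches before the start sites of Krtap4-6 and Krtap4-9 are shown because they are nearly alike while the levels differ 5.66-fold, a pair chosen after its values were seen.
Krtap4-6, chr11:99665961-99666060, minus strand: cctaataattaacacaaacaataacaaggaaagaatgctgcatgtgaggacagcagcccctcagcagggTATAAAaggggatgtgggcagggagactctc
Krtap4-9, chr11:99785100-99785199, plus strand: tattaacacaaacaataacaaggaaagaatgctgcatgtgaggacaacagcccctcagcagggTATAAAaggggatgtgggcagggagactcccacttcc
They matched at 91 of 94 bases when set against each other with an offset of 6 bases. Krtap4-6 measured 8.02, 1.44 and 12.2 FPKM among wildtype mice against 0.0119, 0.275 and 1.74 FPKM among TNFR2-/- mice. Krtap4-9 measured 1.66, 0.0855 and 1.72 FPKM among wildtype mice against 0.0447, 0.0808 and 0.600 FPKM among TNFR2-/- mice. The genotypes overlapped in both.

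At the high-coordinate end of the cluster, Krtap17-1 measured 2.37, 0.409 and 2.37 FPKM in wildtype and 0.632 FPKM in knockout library 3, and is listed at 0 in the other knockout libraries. Krtap31-1 and Krtap31-2 are listed at 0 in all libraries except wildtype library 3, where they measured 0.0168 and 0.0185 FPKM. Krtap9-5 measured 0.0445 and 0.0604 FPKM in wildtype libraries 1 and 3 and is listed at 0 elsewhere.

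The small clusters on chromosomes 7 and 10 hold subfamilies known from the hair cuticle, and all 8 rows were low. Krtap5-1 measured 2.42, 0.687 and 2.35 FPKM among wildtype mice against 0, 0.0075 and 0.218 FPKM among TNFR2-/- mice, without overlap. Its mean was 1.82 ± 0.980 FPKM among wildtype mice against 0.0753 ± 0.124 FPKM among TNFR2-/- mice (SD, n = 3 each), and its log2 change was -1.33 ± 0.28 (SE) with a Benjamini-Hochberg p of 0.179 in limma. Krtap5-5 followed with 1.87, 0.456 and 1.51 FPKM in wildtype, 0.216 FPKM in knockout library 3 and listed zeros in the other knockout libraries. Unlike the leading rows of chromosome 16, the Krtap5 rows summed to slightly more in wildtype library 1 (7.29 FPKM) than in wildtype library 3 (6.92 FPKM), a difference that was not tested. On chromosome 10, Krtap10-4 and Krtap12-1 had wildtype means of 0.914 ± 0.699 and 0.528 ± 0.358 FPKM and knockout means of 0.0545 ± 0.0918 and 0.0503 ± 0.0871 FPKM (SD, n = 3 each).

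Krtap20-2 and Krtap13 were among the rows that departed from the shared order, and both were chosen after their values were seen. Krtap20-2 measured 0.765, 0.632 and 0.563 FPKM among wildtype mice but is listed at 0 for each knockout mouse, so wildtype library 2 was as high as the other wildtype libraries. It fell below the minimum for testing. With no minimum limma called it lower (log2 change -0.72 ± 0.05, SE; Benjamini-Hochberg adjusted p = 0.00487), alone among the 52 rows, where 0.0662% of 19631 rows were called lower. Whether its zeros are measured absence or failed estimates is not known from the table. Krtap13 was the row with a higher knockout mean, with 0, 0.127 and 0.144 FPKM among wildtype mice against 0.0982, 0.208 and 0.155 FPKM among TNFR2-/- mice, levels at which few fragments are counted.

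Level also went with the kind of protein encoded. Coding sequences from GENCODE vM21 were scored by their share of cysteine codons (TGC and TGT) and of glycine and tyrosine codons. Rows with over 30% cysteine codons were grouped as ultra-high sulfur (18 rows), the other rows with over 35% glycine and tyrosine codons as glycine-tyrosine (15 rows), and the remainder as high sulfur (19 rows). These thresholds were applied after the levels were known. Krtap7-1, with 29.9% glycine and tyrosine codons and 9.20% cysteine codons, falls into the high sulfur group by them. That group is a remainder, and not every row in it is rich in cysteine. Its cysteine codons ran from 4.0 to 29.8%, and those of the glycine-tyrosine group from 0 to 16.7%. The glycine-tyrosine rows had a median of 13.0 FPKM over the 6 libraries (0.327 to 32.3), the high sulfur rows 4.79 FPKM (0.0028 to 33.0) and the ultra-high sulfur rows 0.955 FPKM (0.0175 to 4.94). All 15 glycine-tyrosine rows lie on chromosome 16 and none of the 18 ultra-high sulfur rows does. Between these groups, a difference by codons and a difference by cluster cannot be told apart. The knockout mean of the summed level was 9.25%, 10.1% and 11.03% of wildtype in the 3 groups.

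**Figure D3:**
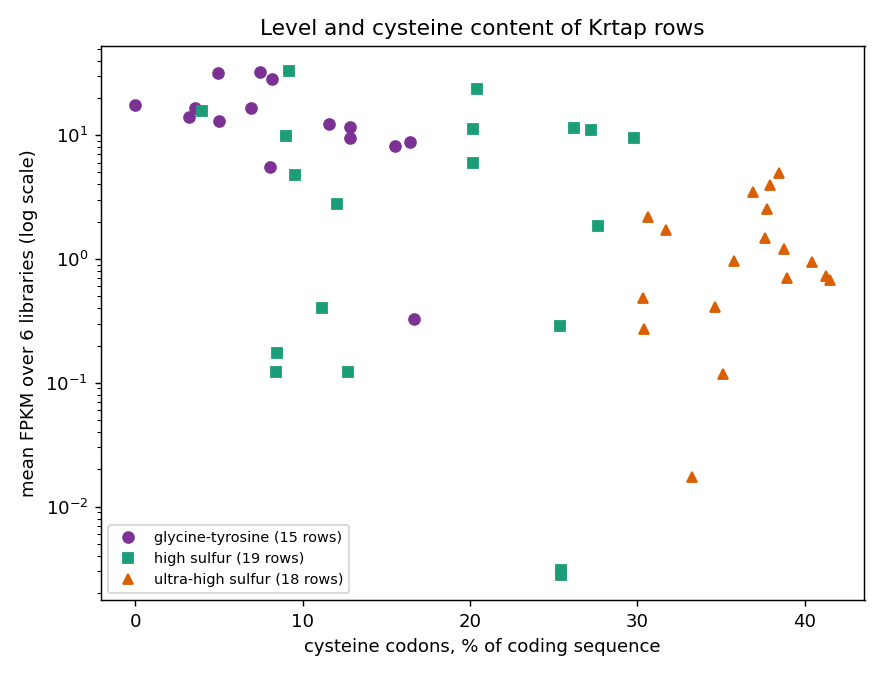
Mean FPKM over the 6 libraries (vertical, log scale) against the share of cysteine codons in the coding sequence (horizontal), 1 point per Krtap row, by codon group. All 18 ultra-high sulfur rows lie below 5 FPKM, and the 12 rows above 12 FPKM belong to the other groups.

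The make-up of the Krtap signal was much alike in the 4 libraries with the most of it and differed in the 2 with the least. Glycine-tyrosine rows held 57.1, 61.0 and 57.4% of the sum in wildtype libraries 1, 2 and 3 and 57.2% in knockout library 3, but 47.1 and 44.5% in knockout libraries 1 and 2. The Krtap3 subfamily held 9.24 to 10.4% in the former 4 libraries and 17.0 and 19.3% in knockout libraries 1 and 2. Sums there were 11.7 and 23.9 FPKM, 12 and 11 of the 52 rows are listed at 0, and the counting error of these shares cannot be computed from FPKM. Krtap3-3, Krtap3-2 and Krtap3-1 share 41.3, 28.9 and 8.83% of their 50-base stretches with other transcripts, all of them from the same subfamily.

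**Figure D4:**
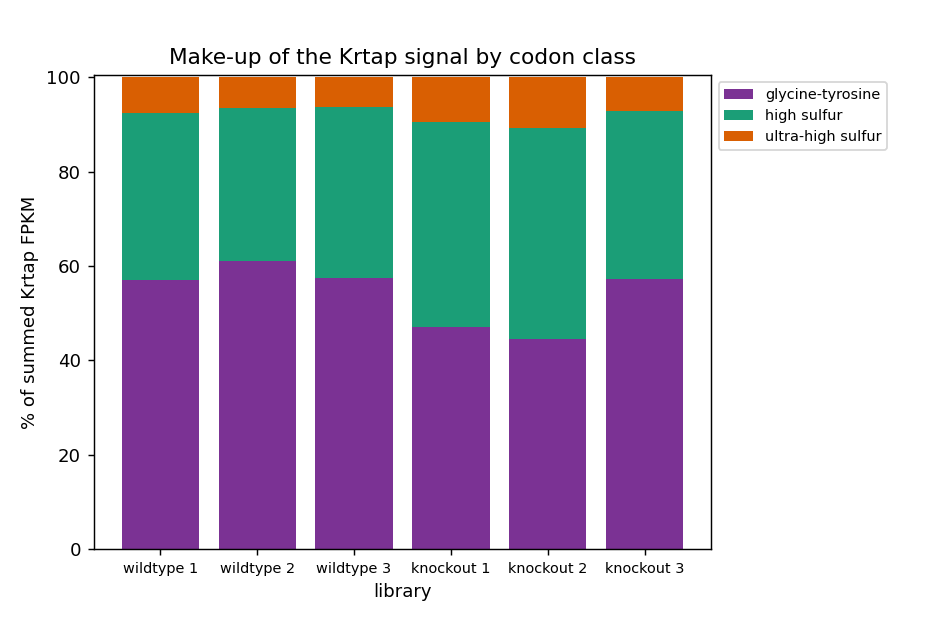
Share of the summed Krtap FPKM of each library (vertical, %) held by glycine-tyrosine, high sulfur and ultra-high sulfur rows. Glycine-tyrosine rows fill 57.1 to 61.0% of the bars of the wildtype libraries and knockout library 3, and 47.1 and 44.5% of those of knockout libraries 1 and 2.

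Near-identical copies limit what single rows can say. Of the 51 genes 14 share no 50-base stretch with another transcript of GENCODE vM21, the median is 8.77% and 13 share over 25%. Krtap5-1 is the highest at 60.6%, shared with other Krtap5 genes and with predicted genes. No source used here says how the authors counted reads that match several copies. Krtap7-1, Krtap8-1, Krtap22-2 and Krtap14 share none. Matches with mismatches and copies outside the annotation were not examined.

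Summed levels of hair keratins and of inner root sheath genes were also highest in wildtype libraries 3 and 1 and lowest in knockout libraries 1 and 2, but with knockout library 3 above wildtype library 2. A fixed list of 16 hair shaft keratins, the filament partners of Krtap proteins, had 12 members in the table, which summed to 56.0, 12.8 and 80.5 FPKM among wildtype mice against 3.01, 4.90 and 17.2 FPKM among TNFR2-/- mice. Of these 12, 10 had lower knockout means, against 56.8% of all rows, and 2 had no overlap, against 11.2%, a count too small to set the list apart. Limma called 0 of the 8 tested, and 4 had an unadjusted p under 0.05 and a lower level, against 9.91% of tested rows. The authors' deposited table calls 7 of the 12 lower, against 0.926% of all its rows. Their median log2 change was -1.90. Krt34, the highest, measured 12.3, 2.59 and 19.3 FPKM among wildtype mice against 0.255, 0.316 and 3.04 FPKM among TNFR2-/- mice. Krt36 and Krt84, picked after their values were seen, departed from it, with 1.20 and 0.880 FPKM in knockout library 1 against 1.39 and 1.82 FPKM in wildtype library 1. In knockout library 2 they held 1.32 and 1.84 FPKM. Krt36 and Krt84 thus made up most of the list's sum in knockout libraries 1 and 2.

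Genes of the inner root sheath, the sleeve that moulds the growing hair, summed to 46.6, 10.5 and 70.0 FPKM among wildtype mice against 1.04, 2.87 and 12.4 FPKM among TNFR2-/- mice over 8 members. All 8 had lower knockout means and 2 had no overlap, where the shares over all rows were 56.8% and 11.2%. Limma called 0 of the 6 tested, 4 had an unadjusted p under 0.05 and a lower level, against 9.91% of tested rows, and the median log2 change was -1.88. The authors' deposited table calls 5 of the 8 lower, against 0.926% of all its rows. For every 100 FPKM of this list, Krtap rows summed to 1610, 1755 and 1754 FPKM among wildtype mice against 1133, 834 and 1392 FPKM among TNFR2-/- mice. The Krtap sum relative to this list was thus lower in each knockout library than in each wildtype library, while both sums varied far more than their ratio. In knockout libraries 1 and 2 the ratio rests on list sums of only 1.04 and 2.87 FPKM. In knockout library 1, 2 of the 8 members are listed at 0. The difference in this ratio was not tested.

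Upstream regulators did not move in 1 direction. Of their 9 rows, 6 had lower knockout means, against 56.8% of all rows. Their sums were level across libraries, from 18.4 to 22.1 FPKM, but most of each sum was Foxq1 and Ovol1. Gata3 and Dlx3, picked after their values were seen, had wildtype means of 1.31 and 0.625 FPKM and knockout means of 0.694 and 0.271 FPKM. The genotypes overlapped in both. All knockout values lay below all wildtype values in 1 of the 9 rows, against 11.2% of all rows, which does not set the list apart. This row was Hoxc13, a homeobox gene needed for hair shaft differentiation, singled out with its levels already known. Hoxc13 held 0.305, 0.0851 and 0.331 FPKM among wildtype mice against 0, 0.0498 and 0.0474 FPKM among TNFR2-/- mice. Its mean was below the minimum for testing. Foxq1 and Ovol1, the most abundant of the 8 regulators, had wildtype means of 9.81 and 5.55 FPKM and knockout means of 10.7 and 5.72 FPKM. Limma called 0 of the 6 tested rows, with a median log2 change of 0.01. The row with an unadjusted p under 0.05 was Lef1, a transcription factor of Wnt signalling, which was singled out after its values were known. Its libraries held 0.715, 0.879 and 0.817 FPKM among wildtype mice against 1.31, 1.04 and 1.03 FPKM among TNFR2-/- mice, higher in the knockout without overlap (limma, Benjamini-Hochberg adjusted p = 0.295). The 10 genes of shaft adhesion and hardening summed to 378, 401 and 384 FPKM among wildtype mice against 556, 367 and 473 FPKM among TNFR2-/- mice. Most of that sum was Tgm3, a transglutaminase, with means of 289 ± 47.6 FPKM in wildtype and 407 ± 106 FPKM in knockout mice (SD, n = 3 each). The other 9 had lower knockout means, where 56.8% of all rows had one. Limma called 0 of the 7 tested with Tgm3 included. Of these 7, 1 had an unadjusted p under 0.05 and a lower level, against 9.91% of tested rows. The authors' deposited table calls 4 of the 10 lower, against 0.926% of all its rows. Prr9, a gene of this list picked after its values were seen, measured 6.998, 2.03 and 10.3 FPKM among wildtype mice against 0.156, 0.431 and 1.007 FPKM among TNFR2-/- mice.

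Skin and muscle genes also differed between libraries, not always in step with the Krtap rows. Basal epidermis genes (6 of 6 found, none at 0) summed to 223, 91.2 and 272 FPKM among wildtype mice against 12.1, 125 and 152 FPKM among TNFR2-/- mice. Between knockout libraries 3 and 2 the Krtap sum differed 7.24-fold and the basal epidermis sum 1.22-fold. Wildtype library 2 had 7.74 times the Krtap sum of knockout library 2 and 0.730 times its basal epidermis sum. For every 100 FPKM of basal epidermis genes, Krtap rows summed to 336, 203 and 452 FPKM among wildtype mice against 96.7, 19.1 and 114 FPKM among TNFR2-/- mice, without overlap between the genotypes.

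Skeletal muscle genes (9 of 10 found, none at 0) summed to 7051, 2170 and 2530 FPKM among wildtype mice against 121, 1590 and 1127 FPKM among TNFR2-/- mice. For every 100 FPKM of them, Krtap rows summed to 10.65, 8.53 and 48.5 FPKM among wildtype mice against 9.66, 1.505 and 15.4 FPKM among TNFR2-/- mice. Unlike the ratio to basal epidermis genes, this ratio overlapped between the genotypes. All 9 muscle genes are called lower in the authors' deposited table, against 0.926% of all its rows. There was no overlap in 8 of the 9, against 11.2% of all rows, and their median log2 change was -2.46. Sebaceous gland genes, 5 in number and with 1 at 0 in knockout library 1, summed to 61.5, 18.0 and 54.0 FPKM among wildtype mice against 3.35, 34.5 and 29.5 FPKM among TNFR2-/- mice. Suprabasal epidermis genes (5 of 6 found, none at 0) summed to 342 to 907 FPKM among wildtype mice against 52.5 to 862 FPKM among TNFR2-/- mice. Melanocyte genes summed to 1.39 to 1.90 FPKM in all libraries, with Mlana, a pigment cell marker, at 0 in each. The authors' deposited table calls 3 basal epidermis genes and 1 sebaceous gland gene lower, against 0.926% of all its rows, and none of the suprabasal or melanocyte genes. Limma called no member of these lists in either direction. An unadjusted p under 0.05 was reached by 2 of 9 muscle genes, both lower in the knockout, and by none of the others. Of all tested rows 9.91% had such a p and a lower level. What part the skin and muscle content of a library had in its Krtap level was not tested.

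**Figure D5:**
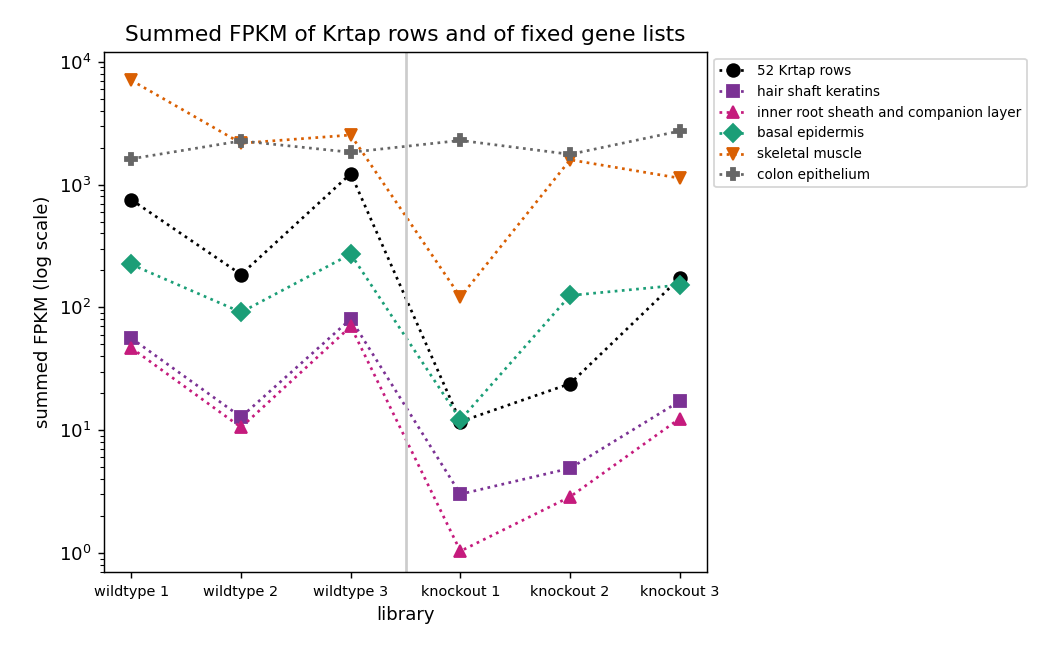
Summed FPKM (vertical, log scale) of the 52 Krtap rows and of 5 fixed gene lists in each library (horizontal); dotted lines join the points of a list and show no order of samples. Krtap rows and both hair follicle lists are lowest in knockout library 1 and highest in wildtype library 3, basal epidermis is nearly level between knockout libraries 2 and 3 (125 and 152 FPKM), and colon epithelium stays between 1621 and 2728 FPKM.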

How the data were processed

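Alignment by the authors used Tophat2 and Bowtie2, followed by transcript assembly in Cufflinks and a genotype test in Cuffdiff 2, per the labels' design text. Per the submitters' processing notes the assembly was mm10. No source used here gives tool releases, annotation, strandedness or library scaling. The deposited table holds FPKM per library and group, per the file headers, and the authors' p-values and q-values. Its log2 fold changes were not used beyond their sign.

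Here log2(FPKM + 1) was tested in limma 3.58.1 (R 4.3.3) with trend and robust moderation, no covariates, all 6 libraries and 14564 named rows; 6.13% of rows have no name and were left out. The test was tried on simulated data. Other steps used numpy 2.4.6, pandas 2.3.3 and matplotlib 3.10.9 under Python 3.11.15. The members, the 10 gene lists and the tests were chosen with earlier results of these data known. The rule for named genes took the 12 most abundant Krtap rows, the most abundant of each subfamily, any called row and the leading members of each list. Limma p-values set the genotype difference against the spread between 3 mice per genotype, with the variance of each row moderated over all tested rows. Alternatives were other pseudocounts, filters, moderation, quantile normalization, a replicate block and leaving out each library. The planned protein table was not used here, and codons were counted in GENCODE transcripts, a step added afterwards. RefSeq promoters were matched by gene.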

Additional observations from a re-analysis of the deposited data

How the results depend on the processing

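The count of Krtap rows called lower by limma was 0 with pseudocounts of 0.1 or 0.01, a minimum mean of 1 FPKM, plain limma or quantile normalization. With no minimum it was 1 (Krtap20-2), and a pseudocount of 0.01 with no minimum, chosen after seeing the data, also gave 1. Leaving out single libraries gave 0 to 6, the 6 without wildtype library 2, and no setting called a Krtap row higher. With the replicate number as a block 1 row, Krtap16-8, was called. Same-numbered libraries did not consistently deviate together (correlations of -0.375, -0.337 and 0.209 for numbers 1, 2 and 3 over 14564 rows). Wildtype libraries 1 and 2 correlated best with knockout libraries 2 and 1, and wildtype library 3 with knockout library 3. The numbers were not taken as pairs. The hair shaft keratin list and the adhesion and hardening list each had 0 to 1 called members with a library left out (Krt35 and Prr9, without wildtype library 2). Rows without overlap ranged from 28 to 48 with a library left out. All 39 tested Krtap rows kept a lower level in the knockout in all 538 alternative values. The causes were not tested. With 3 mice per genotype and a spread this wide, differences of several fold stayed above the adjusted threshold.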

Other observations

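Outside the rule that chose the Krtap rows, 2 rows of the table lie on genes that RefSeq names Krtap. Gm11570, which is Krtap16-1 in RefSeq (chromosome 11, 99984703 to 99986593), measured 0.610, 0.0675 and 0.703 FPKM among wildtype mice against 0, 0.0263 and 0.0626 FPKM among TNFR2-/- mice, with a q-value of 0.0085 in the authors' deposited table. The symbol Krtap16-1 in the table stands for another gene, on chromosome 16. A row that names Gm11554 together with Krtap4-13 measured 0.511, 0.0528 and 0.133 FPKM among wildtype mice against 0, 0.179 and 0.170 FPKM among TNFR2-/- mice. Adding both rows moved the knockout mean of the summed Krtap level from 9.65% to 9.66% of wildtype.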
